A study of Glycine max with 4 samples.

Results

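Aquaporins, the membrane channels that let water and small neutral molecules cross, were followed in soybean leaves 24 h after phosphate (Pi) was withdrawn. The genes were chosen by their descriptions alone: a locus of a single gene counted when its description spoke of an aquaporin or of an intrinsic protein of the plasma membrane, the tonoplast or the NOD26-like type. This gave 57 genes of the 39505 loci in the table, with 26 plasma membrane intrinsic proteins (PIP), 11 tonoplast intrinsic proteins (TIP), 12 NOD26-like intrinsic proteins (NIP), 4 small and basic intrinsic proteins (SIP) and 4 whose description gives no subfamily. Of the PIP genes 10 were described as PIP1 and 15 as PIP2, and 1 carried the number 3 and was counted under neither.

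Pi-deprived leaves (PDL) came from Williams 82 seedlings, the cultivar of the soybean reference genome, moved for 24 h to a solution with 0 µM KH2PO4. Pi-sufficient leaves (PSL) came from seedlings of the same cultivar that stayed at 500 µM KH2PO4. All seedlings were grown without soil for 18 days before the transfer, and the first trifoliate leaf was taken. Each group had 2 libraries, PDL-1 and PDL-2 against PSL-1 and PSL-2, and each library pooled leaves of several plants. K2SO4 took the place of KH2PO4 in the Pi-free solution, so that the groups also differ in sulfate and the effects of the 2 salts cannot be told apart.

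As background, plant aquaporins sit in different membranes by subfamily. PIPs lie in the plasma membrane, and PIP1 proteins of several plants reach it together with PIP2 partners, which are usually the stronger water channels. TIPs lie in the membrane of the vacuole, where the gamma and delta types carry water, and some members also pass ammonia or urea. NIPs are named after nodulin 26 of the soybean root nodule, and in Arabidopsis some carry boric acid. SIPs of Arabidopsis lie in the endoplasmic reticulum. In leaves, PIPs and TIPs are known for moving water out of the veins and for balancing the cell and its vacuole.

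Levels are given in FPKM, sequenced fragments scaled to transcript length and to library size, so that genes can be compared on it. In each pair of values the first is replicate 1 and the second replicate 2. Whole read counts were not used here, and loci under about 0.3 FPKM rest on very few reads, since the log2 ratio of the 2 libraries of a group piled up in a narrow range there (514 of 2336 such loci in PDL between 0.3 and 0.4, and 533 of 2325 in PSL between -0.4 and -0.3). The 4 libraries resembled each other across all loci as much between groups (Pearson r 0.932 to 0.940) as within them (0.938 in PDL and 0.937 in PSL). The leaf label fits the markers: genes of the light-harvesting complexes and the Rubisco small chain summed to 152980 and 155310 FPKM in PDL, against 120220 and 130730 FPKM in PSL, and 34 of their 37 tested loci had both PDL libraries above both PSL libraries. Over all loci tested 20.2% were of this kind. The median log2 fold change of the 37 marker loci was 0.29, and 0 passed the thresholds given below. Over all loci tested these thresholds called 1.14% higher and 0.887% lower. Root markers, of which 1 gene alone averaged 291 FPKM over the libraries, summed to 402 and 358 FPKM in PDL and 404 and 332 FPKM in PSL.

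Most aquaporin transcripts came from a few genes. The 57 genes together made up 0.302% and 0.338% of all FPKM in PDL, and 0.297% and 0.262% in PSL. The 10 genes with a mean of at least 100 FPKM, 7 PIPs and 3 TIPs, held 87.9% and 89.5% of the aquaporin sum in PDL and 88.6% and 89.5% in PSL. At the other end, 15 genes had a mean under 1 FPKM. The 4 most abundant genes were a pair of gamma TIPs and a pair of PIP1s, which held 65.0% and 65.6% of the sum in PDL, against 62.0% and 63.1% in PSL.

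**Figure D1:**
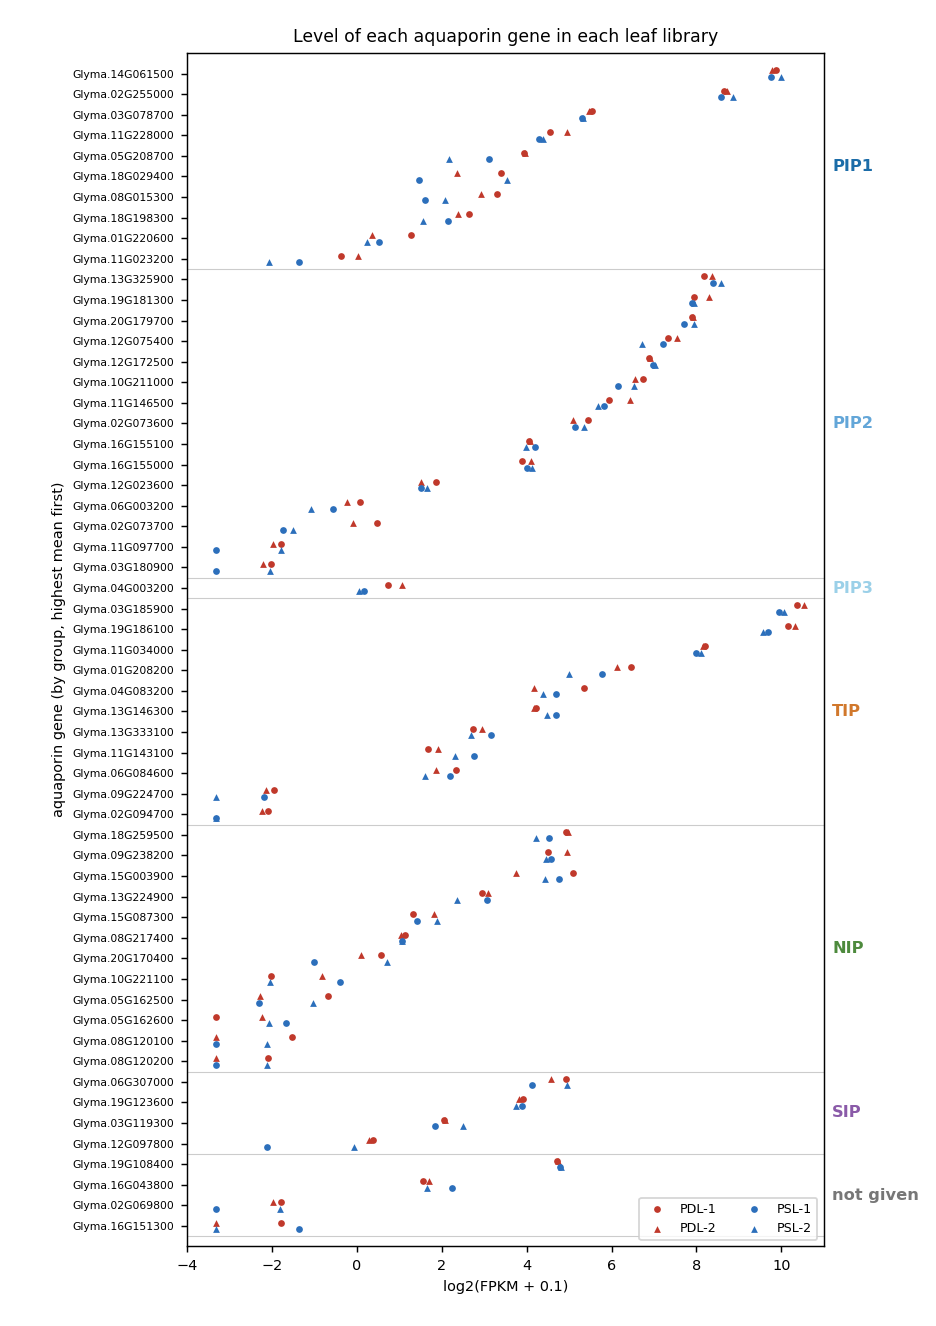
Level of each of the 57 aquaporin genes in each library, as log2(FPKM + 0.1) on the horizontal axis, with genes grouped by subfamily and sorted by mean within each group. Red points are the 2 PDL libraries and blue points the 2 PSL libraries. The gamma TIPs at the top of the TIP block and 2 PIP1 genes stand highest, and a value of 0 FPKM lies at the left edge.

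The test took loci whose mean reached 0.3 FPKM and ran on log2(FPKM + 0.1), on which scale all fold changes here are given as PDL over PSL and which understates the change of low genes. A gene was called when its log2 fold change was at least 1 in size and its unadjusted p was at most 0.05 (limma), which are the thresholds the study set. Of the 57 aquaporins 47 were tested, and 3 were called higher in PDL and 0 lower. The 3 are 6.38% of those tested, and over all 32686 loci tested the shares called were 1.14% higher and 0.887% lower. Of the 3, Glyma.02G073700 passed the filter only through its PDL values and had to differ. With a filter at 1 FPKM 42 aquaporins were tested and 2 called higher, against 0.968% of all loci. Without PDL-1 only 1 aquaporin was called (Glyma.02G073700), and without PSL-1 there were 5, all higher in PDL. For 0 aquaporins was the Benjamini-Hochberg adjusted p of limma over all loci under 0.05. The smallest among aquaporins was 0.471, and of all loci 19 (0.0581%) were under 0.05. At an unadjusted limma p of at most 0.05 alone stood 10 aquaporins, against 8.93% of all loci. Of these 8 were higher and 2 lower in PDL, where the shares over all loci were 4.64% and 4.29%. With 2 libraries a group, no exact permutation test can give a two-sided p under 0.333. The limma p-values rest on these 4 libraries only, with the variance of each locus drawn toward a trend over all loci tested.

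Both PDL libraries lay above both PSL libraries in 18 of the 47 genes, and both PSL libraries above both PDL libraries in 5. Over all loci these shares were 20.2% and 21.1%. The log2 fold change was positive in 32 of the 47 (68.1%), against 48.6% of all loci, and its median was 0.20, against -0.010 over all loci. Without PDL-1 the median over the aquaporins was 0.11. The 18 and the 32 both include 2 genes that were tested only because of their PDL values and had to be higher there. For 0 aquaporins was it the reverse. With a filter at 1 FPKM 28 of 42 aquaporins (66.7%) were positive, and the median was 0.19, against -0.012 over all loci. The changes were small for most genes: 35 of the 47 lay within 0.5 of 0, and for 27 the whole 95% interval lay within 1 of 0. Among the 10 most abundant genes the median was 0.11 with a range of -0.22 to 0.60, and 9 had such an interval.

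**Figure D2:**
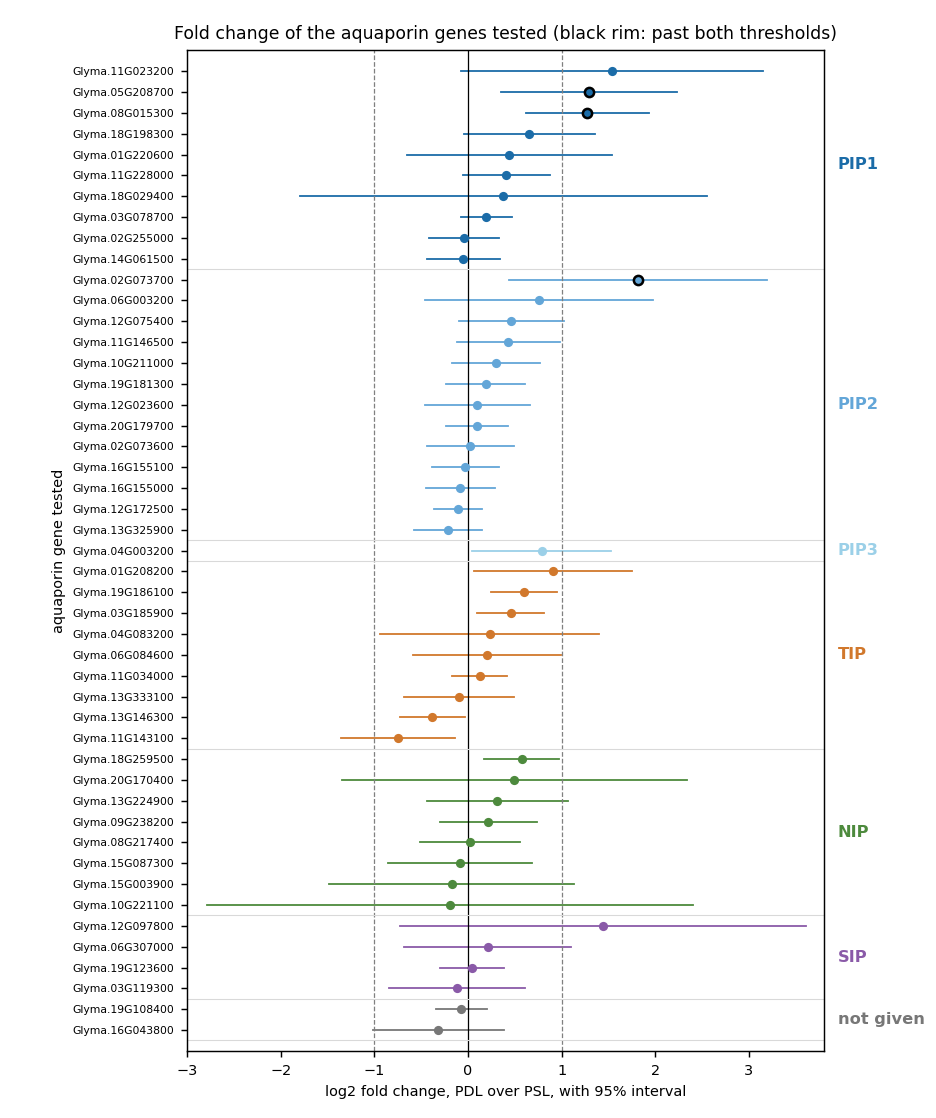
Log2 fold change of PDL over PSL (points) with its 95% interval (lines) for the 47 aquaporin genes tested, grouped by subfamily. Dashed lines mark a change of 1 in either direction, and a black rim marks the 3 genes past both thresholds, 2 of them PIP1 and 1 PIP2, all on the right.

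The 2 most abundant PIP1 genes had overlapping groups, and the 2 PIP1 genes called were of low to middle level. Glyma.14G061500, described as PIP1;4, had 940 and 877 FPKM in PDL and 859 and 1027 FPKM in PSL. Glyma.02G255000, with the same description, had 399 and 420 FPKM in PDL and 384 and 464 FPKM in PSL. In both genes the PDL libraries lay between the PSL libraries, and the log2 fold changes were -0.048 (95% interval -0.44 to 0.34) and -0.043 (-0.42 to 0.34). After quantile normalization they were -0.29 (limma, unadjusted p = 0.0318) and -0.19 (limma, unadjusted p = 0.102). The first exceeded the second 2.36- and 2.09-fold in PDL, against 2.24- and 2.21-fold in PSL. Together they held 92.1% and 92.2% of PIP1 transcripts in PDL, against 94.0% and 94.6% in PSL.

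Of the 10 PIP1 genes 8 had a positive log2 fold change, between 0.19 and 1.54, and the abundant pair were the only 2 negative. In 6 of the 8 the groups did not overlap. Over all loci 48.6% were positive, and 20.2% had both PDL libraries above both PSL libraries. The gene at 1.54 was tested only because of its PDL values and had to be higher there. With a filter at 1 FPKM 7 of 9 PIP1 genes were positive. Glyma.05G208700, on chromosome 5 of the Gmax2.0 genome from 39069112 to 39070500, had 15.1 and 15.4 FPKM in PDL, against 8.61 and 4.41 FPKM in PSL. Both PDL libraries were above both PSL libraries, which differed from each other by more than the PDL libraries did. Its log2 fold change was 1.29 ± 0.35 (SE), or 2.45-fold (limma, unadjusted p = 0.0182, adjusted p = 0.522). The call was lost when PDL-1, PDL-2 or PSL-2 was left out: the unadjusted limma p was 0.123 without PDL-1 and 0.128 without PDL-2, and the log2 fold change was 0.82 without PSL-2.

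Glyma.08G015300, on chromosome 8 from 1204998 to 1206460, had 9.69 and 7.52 FPKM in PDL, against 2.94 and 4.11 FPKM in PSL. The lowest PDL library was above the highest PSL library. Its log2 fold change was 1.27 ± 0.24 (SE), or 2.42-fold (limma, unadjusted p = 0.0053, adjusted p = 0.471). It was called under 12 of 13 alternative settings. The exception was the fit without PDL-1, with an unadjusted limma p of 0.0603. Both genes carry the same description as the abundant pair, at levels that averaged 15.2 and 8.61 FPKM in PDL. They added little to the PIP1 sum, which was 1454 and 1408 FPKM in PDL and 1322 and 1577 FPKM in PSL.

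Glyma.11G023200, another PIP1;4 gene, had 0.666 and 0.915 FPKM in PDL, against 0.289 and 0.137 FPKM in PSL. Its log2 fold change of 1.54 ± 0.60 (SE) was the highest among PIP1 genes but missed the p threshold (limma, unadjusted p = 0.0578, adjusted p = 0.568), and its PSL mean lay under the filter. Glyma.18G198300 had 6.14 and 5.09 FPKM in PDL and 4.32 and 2.86 FPKM in PSL, and Glyma.11G228000 had 23.4 and 30.7 FPKM in PDL and 19.6 and 20.7 FPKM in PSL. In both the groups did not overlap, with log2 fold changes of 0.65 and 0.41. The replicates of the 1 gene described as PIP1;5, Glyma.18G029400, lay far apart, with 10.4 and 5.07 FPKM in PDL and 2.66 and 11.5 FPKM in PSL, and its 95% interval ran from -1.80 to 2.55. Over the 10 PIP1 genes the median log2 fold change was 0.43 (0.84 without PDL-2).

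PIP2 transcripts were spread over more genes. Glyma.13G325900 was the most abundant, with 290 and 332 FPKM in PDL, against 338 and 384 FPKM in PSL. Every PDL value was below every PSL value, but the log2 fold change was only -0.22 (95% interval -0.58 to 0.15). After quantile normalization it was -0.37 (limma, unadjusted p = 0.0240). It was the lowest of all PIP genes. Glyma.19G181300, described as PIP2A, had 246 and 313 FPKM in PDL and 239 and 247 FPKM in PSL, and Glyma.20G179700, described as PIP2;5, had 240 and 244 FPKM in PDL and 209 and 244 FPKM in PSL. For these 2 genes the groups overlapped, and the intervals ran from -0.23 to 0.61 and from -0.24 to 0.43. A change of 2-fold in either direction lies outside all 3 intervals.

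The 2 genes described as PIP2;4 kept about the same ratio in both groups. Glyma.12G075400 had 160 and 187 FPKM in PDL, against 148 and 106 FPKM in PSL, and Glyma.11G146500 had 60.9 and 86.2 FPKM in PDL, against 56.5 and 51.1 FPKM in PSL. Both had PDL above PSL in every library, with log2 fold changes of 0.46 ± 0.21 and 0.43 ± 0.20 (SE) that missed both thresholds. The first stood 2.62- and 2.17-fold above the second in PDL, against 2.63- and 2.08-fold in PSL.

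Glyma.02G073700 had the largest log2 fold change of any aquaporin tested. It lies on chromosome 2 from 6434789 to 6437652 and is described as PIP2. Its level was 1.30 and 0.836 FPKM in PDL, against 0.197 and 0.254 FPKM in PSL. Both PDL libraries were above both PSL libraries, and the log2 fold change was 1.82 ± 0.51 (SE), or 3.52-fold (limma, unadjusted p = 0.0209, adjusted p = 0.524). Its PSL mean was under 0.3 FPKM, so it was tested only because of its PDL values and had to be higher there. It was not called with a pseudocount of 1 or with a replicate block. Its neighbour Glyma.02G073600, 9939 bp away, is also described as PIP2 and had 43.5 and 34.1 FPKM in PDL and 35.2 and 40.9 FPKM in PSL. The lower gene stood at 2.98% and 2.45% of its neighbour in PDL, against 0.560% and 0.622% in PSL. The other PIP2 neighbours, Glyma.16G155000 and Glyma.16G155100, lie 6696 bp apart and had 14.6 to 17.1 and 16.4 to 16.8 FPKM in PDL, and 16.1 to 17.5 and 15.7 to 18.3 FPKM in PSL. Over the 13 PIP2 genes tested the median log2 fold change was 0.10. The PIP gene numbered 3, Glyma.04G003200, had 1.56 and 2.00 FPKM in PDL, against 1.02 and 0.939 FPKM in PSL, with a log2 fold change of 0.79 ± 0.27 (SE) under the fold threshold (limma, unadjusted p = 0.0423, adjusted p = 0.550).

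For the PIP subfamily as a whole, 3 of 24 tested genes were called higher and 0 lower, and 18 had a positive log2 fold change. Over all loci tested 1.14% were called higher and 0.887% lower, and 48.6% were positive. The median over the 24 PIP genes was 0.34 (0.17 without PSL-1). The PIP counts include Glyma.02G073700 and Glyma.11G023200, which were tested only because of their PDL values. With a filter at 1 FPKM 21 PIP genes were tested and 2 were called higher, against 0.968% of all loci. Of the 21, 15 had a positive log2 fold change, and the median was 0.19. The summed level did not follow: it was 2756 and 2858 FPKM in PDL, against 2584 and 2911 FPKM in PSL, and the groups overlapped. After quantile normalization, the sum over the tested PIP genes was 2605 and 2757 FPKM in PDL, against 2964 and 2837 FPKM in PSL, with both PDL libraries below both PSL libraries.

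**Figure D3:**
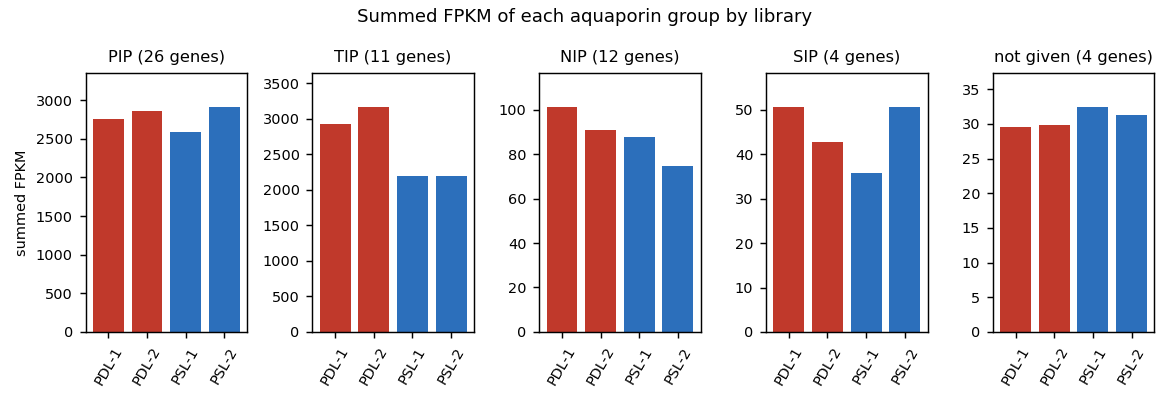
Summed FPKM (vertical axis, from 0, with its own scale in each panel) of the genes of each aquaporin group in the 4 libraries, with PDL in red and PSL in blue. Both PDL bars stand above both PSL bars for TIP (2922 and 3166 FPKM in PDL against 2196 and 2199 FPKM in PSL) and by less for NIP, below them for the genes with no subfamily given, and among them for PIP and SIP.

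The summed TIP level was higher in both PDL libraries in the deposited FPKM, and most of the sum came from 2 gamma TIPs. After quantile normalization the groups overlapped, at 2662 and 2939 FPKM in PDL and 2691 and 2132 FPKM in PSL. No TIP gene passed the fold threshold together with the p threshold. Glyma.03G185900, on chromosome 3 from 39767548 to 39768819, was the most abundant aquaporin gene. It had 1332 and 1488 FPKM in PDL, against 986 and 1071 FPKM in PSL. Every PDL value was above every PSL value, and the log2 fold change was 0.45 ± 0.13 (SE), or 1.37-fold with a 95% interval of 0.10 to 0.81 in log2 (limma, unadjusted p = 0.0229, adjusted p = 0.526). After quantile normalization it was 0.17 (limma, unadjusted p = 0.313).

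Glyma.19G186100, the other abundant gamma TIP, lies on chromosome 19 from 44462078 to 44463346. It had 1136 and 1273 FPKM in PDL, against 831 and 762 FPKM in PSL. The groups did not overlap here either, and the log2 fold change was 0.60 ± 0.13 (SE), or 1.51-fold (limma, unadjusted p = 0.00865, adjusted p = 0.483). After quantile normalization it was 0.33 (limma, unadjusted p = 0.164). The 2 genes differ in length by only a few bases (1272 and 1269 bp), and the alignment allowed a read to match several places, and how many reads they share was not tested. The first exceeded the second 1.17- and 1.17-fold in PDL, against 1.19- and 1.41-fold in PSL. Together they made up 42.1% and 44.6% of all aquaporin FPKM in PDL, against 36.8% and 34.8% in PSL.

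The third gamma TIP had its higher values in PSL. Glyma.13G146300 was at 18.6 and 18.0 FPKM in PDL, against 25.7 and 22.1 FPKM in PSL. Both PDL libraries were below both PSL libraries, at a log2 fold change of -0.38 ± 0.13 (SE) that was under the fold threshold in size (limma, unadjusted p = 0.0377, adjusted p = 0.546).

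The 2 genes described as TIP2;3, whose Arabidopsis namesake can pass ammonia, differed from each other in level. Glyma.11G034000 had 292 and 285 FPKM in PDL and 252 and 278 FPKM in PSL, a log2 fold change of 0.13 ± 0.11 (SE). Glyma.01G208200, on chromosome 1 from 53995808 to 53998031, had 88.2 and 69.4 FPKM in PDL, against 54.7 and 31.7 FPKM in PSL. In both genes PDL was above PSL in every library. The lower gene had the largest log2 fold change among TIPs, 0.91 ± 0.31 (SE), just under the fold threshold (limma, unadjusted p = 0.0396, adjusted p = 0.546), and without PSL-1 it was 1.30 and was called. Without PSL-2 it was 0.51, and without PDL-1 it was 0.74 (limma, unadjusted p = 0.227). Its PSL libraries lay far apart, and the more abundant gene exceeded it 3.31- and 4.11-fold in PDL, against 4.61- and 8.77-fold in PSL.

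Glyma.11G143100, described as TIP1;3, a pollen aquaporin in Arabidopsis, had 3.08 and 3.65 FPKM in PDL, against 6.68 and 4.86 FPKM in PSL. It had the lowest log2 fold change of all aquaporins, -0.75 ± 0.22 (SE), again without reaching the fold threshold (limma, unadjusted p = 0.0262, adjusted p = 0.527). A second gene of that name, Glyma.13G333100, had 6.51 and 7.65 FPKM in PDL and 8.90 and 6.40 FPKM in PSL, with overlapping groups. It exceeded the first 2.11- and 2.10-fold in PDL, against 1.33- and 1.32-fold in PSL. Of the genes described as TIP4;1, Glyma.04G083200 had 41.0 and 18.0 FPKM in PDL and 25.9 and 20.7 FPKM in PSL, so that its PDL libraries lay on either side of both PSL libraries.

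The TIP sum was 2922 and 3166 FPKM in PDL, against 2196 and 2199 FPKM in PSL, a ratio of 1.39 (1.16 after quantile normalization). TIPs were thus 49.9% and 51.2% of aquaporin FPKM in PDL, against 44.5% and 41.8% in PSL, and PIPs were 47.0% and 46.2% in PDL, against 52.4% and 55.3% in PSL. The mesophyll marker sum given above was also higher in both PDL libraries, and its part in the TIP sum was not tested. More TIP transcript per cell and more cells rich in it cannot be told apart in whole leaves.

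The word rule leaves out 4 genes described as delta tonoplast integral protein, a water channel of the vacuole in Arabidopsis, because the description says integral. The study names Glyma.15G018100 as a TIP2 aquaporin, the number that the TIP2;3 genes counted above also carry. Glyma.15G018100, on chromosome 15 from 1392952 to 1395059, had 76.6 and 66.7 FPKM in PDL, against 30.9 and 37.8 FPKM in PSL. Every PDL value was well above every PSL value, and it passed both thresholds at a log2 fold change of 1.06 ± 0.15 (SE), or 2.09-fold (limma, unadjusted p = 0.00182, adjusted p = 0.438). It was called in 11 of 13 alternative settings. Without PDL-1 and without PSL-1 the log2 fold change was 0.96 and 0.92. Glyma.07G018000 had 4.88 and 5.10 FPKM in PDL, against 2.61 and 2.56 FPKM in PSL, a log2 fold change of 0.92 ± 0.15 (SE) that fell short of the fold threshold (limma, unadjusted p = 0.00299, adjusted p = 0.470). Counting the genes so described among the TIPs, 12 genes were tested, and 1 was called higher and 0 lower. The median log2 fold change was then 0.34 in place of 0.20. For the 9 TIP genes alone it was 0.019 without PDL-1, 0.069 without PSL-2 and 0.39 without PSL-1. The sum with the added genes was 3009 and 3240 FPKM in PDL, against 2231 and 2241 FPKM in PSL.

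**Figure D4:**
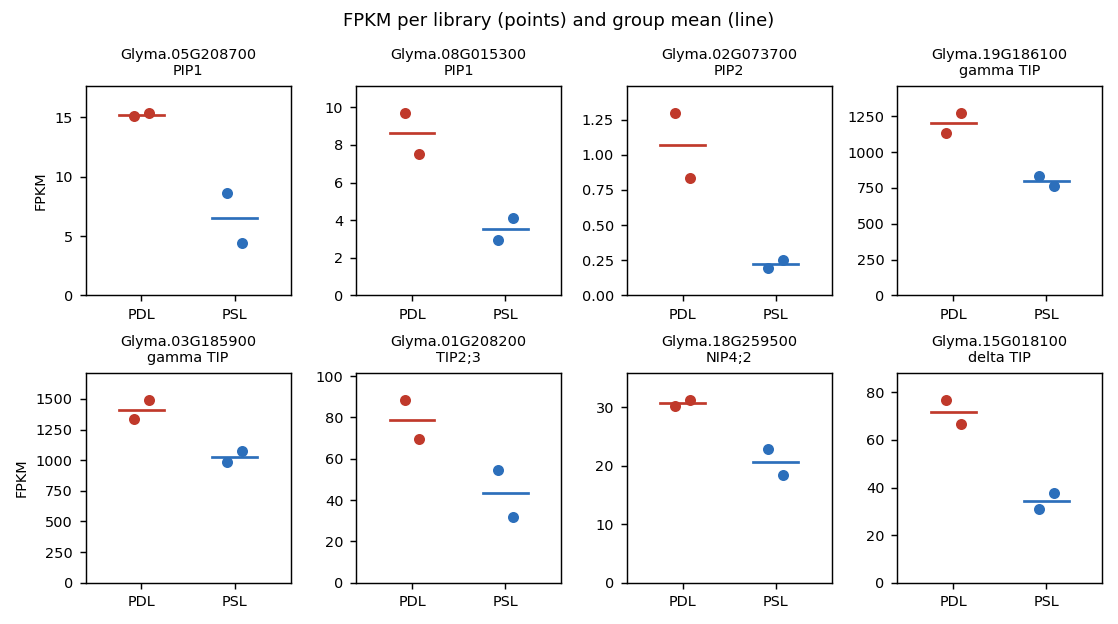
FPKM of 8 tonoplast, plasma membrane and NOD26-like genes in each library (points) with the group mean (line), PDL in red on the left and PSL in blue on the right, each panel from 0 on its own scale. All 8 genes shown have both PDL libraries above both PSL libraries, so they do not stand for the whole family. Of the 47 aquaporins tested 18 were of this kind, 5 were the reverse and in 24 the groups overlapped. Over all loci 20.2% were of this kind. The 18 include 2 genes that were tested only because of their PDL values. The genes differ in level from about 1 FPKM (Glyma.02G073700) to 1488 FPKM (Glyma.03G185900).

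NIP genes were expressed at lower levels than the abundant PIPs and TIPs, and 0 of the 8 tested were called in either direction. Glyma.18G259500, described as NIP4;2, was the highest. It had 30.2 and 31.1 FPKM in PDL, against 22.9 and 18.4 FPKM in PSL. Of the 8 NIP genes tested it was the 1 whose groups did not overlap. Over all loci tested both PDL libraries were above both PSL libraries in 20.2%, and the reverse held in 21.1%. The log2 fold change of Glyma.18G259500 was 0.58 ± 0.15 (SE), under the fold threshold (limma, unadjusted p = 0.0156, adjusted p = 0.511). Its namesake Glyma.09G238200 had 22.5 and 31.0 FPKM in PDL and 23.7 and 21.7 FPKM in PSL, with overlapping groups and a log2 fold change of 0.22.

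The NIP genes named for boric acid channels of Arabidopsis gave no difference beyond their spread. Glyma.15G003900, described as NIP6;1, had 33.9 and 13.4 FPKM in PDL and 27.1 and 21.4 FPKM in PSL, so that the PDL libraries bracketed both PSL libraries. Glyma.08G217400, with the same description, had 2.09 and 1.94 FPKM in PDL and 1.99 and 1.98 FPKM in PSL. The genes described as NIP5;1 had wide spreads at low level: Glyma.20G170400 had 1.39 and 0.970 FPKM in PDL and 0.394 and 1.52 FPKM in PSL, and Glyma.10G221100 had 0.145 and 0.469 FPKM in PDL and 0.654 and 0.142 FPKM in PSL. Glyma.10G221100 had the lowest NIP log2 fold change, -0.19, with a 95% interval of -2.79 to 2.40. Boron exporters of the HCO3- transporter family, which work beside these channels, had 8 of 12 loci tested, with 0 called and a median log2 fold change of 0.10. Their most abundant gene, Glyma.19G219500, had 37.9 and 16.2 FPKM in PDL and 29.6 and 27.3 FPKM in PSL.

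Of the 6 genes described as NIP1;2, 4 were too low to be tested. The other 2 were Glyma.13G224900, with 7.63 and 8.41 FPKM in PDL and 8.26 and 4.99 FPKM in PSL, and Glyma.15G087300, with 2.39 and 3.39 FPKM in PDL and 2.57 and 3.59 FPKM in PSL. The 4 untested genes form 2 neighbouring pairs, on chromosome 5 with 1259 bp between them and on chromosome 8 with 2951 bp between them, and reached at most 0.526 FPKM in any library. The NIP sum was 101 and 90.9 FPKM in PDL, against 87.9 and 74.5 FPKM in PSL, without overlap, and the median log2 fold change was 0.12 (0.32 without PDL-1).

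All 4 SIP genes were tested and 0 were called. Glyma.06G307000, described as SIP1A, had 30.4 and 23.5 FPKM in PDL and 17.3 and 30.9 FPKM in PSL, with overlapping groups. Glyma.19G123600, described as SIP2;1, was among the steadiest aquaporins, with 14.99 and 13.93 FPKM in PDL and 14.78 and 13.28 FPKM in PSL and a 95% interval of -0.30 to 0.38 for its log2 fold change. Glyma.03G119300 had 4.03 and 4.10 FPKM in PDL and 3.50 and 5.60 FPKM in PSL. Glyma.12G097800, the second SIP1A gene, had 1.20 and 1.12 FPKM in PDL, against 0.129 and 0.846 FPKM in PSL. Both of its PDL libraries were above both PSL libraries, but the PSL libraries differed so much that the log2 fold change of 1.44 ± 0.80 (SE) missed the p threshold (limma, unadjusted p = 0.142, adjusted p = 0.657). The SIP sum overlapped between groups, at 50.6 and 42.7 FPKM in PDL and 35.7 and 50.6 FPKM in PSL.

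Of the 4 aquaporin-like genes with no subfamily given, 2 were tested and 0 called. Glyma.19G108400 had 26.3 and 26.6 FPKM in PDL, against 27.6 and 28.1 FPKM in PSL. The PDL values were lower in both libraries, but by a log2 fold change of only -0.072 (95% interval -0.35 to 0.20). Glyma.16G043800 had 2.83 and 3.15 FPKM in PDL and 4.61 and 3.04 FPKM in PSL, with overlapping groups. Glyma.02G069800 had 0.191 and 0.154 FPKM in PDL and 0 and 0.186 FPKM in PSL, and Glyma.16G151300 had 0.191 and 0 FPKM in PDL and 0.286 and 0 FPKM in PSL.

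In all, 10 aquaporins were too low to be tested (2 PIP2, 2 TIP, 4 NIP and 2 with no subfamily), and 9 of them were listed at 0 in at least 1 library. Among the TIPs these were the 1 gene described as TIP5;1, Glyma.09G224700, with 0.157 and 0.128 FPKM in PDL and 0.118 and 0 FPKM in PSL, and Glyma.02G094700, with 0.136 and 0.112 FPKM in PDL and listed at 0 in both PSL libraries.

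By features that the word rule did not use, the 57 genes lay on 18 chromosomes and formed 4 pairs of neighbours within 50000 bp, each pair with 1 shared description. All 57 carried the same 3 Gene Ontology terms, which 159 loci of the table have, and 0 had a KEGG pathway. The locus length ran from 595 to 10426 bp, with a median of 4210 bp for NIP, 1630.5 bp for PIP, 1454 bp for TIP and 1386.5 bp for SIP genes.

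Of the tested genes that work beside aquaporins, 0 were called in either direction. Over all loci tested 1.14% were called higher and 0.887% lower, so that 0 calls in lists this short lies near those shares. Syntaxins described as SYP121, whose Arabidopsis and maize relatives bring PIP2 proteins to the plasma membrane, had 4 of 6 loci tested, with a median log2 fold change of -0.19. The proton pumps that energize the same membranes had medians close to 0: 14 plasma membrane H+-ATPases had a median log2 fold change of -0.070, 7 vacuolar H+-pyrophosphatases one of 0.052 and 28 vacuolar H+-ATPase subunits one of -0.0086, with 0 called. The H+-ATPase Glyma.04G174800 stood at 0.65 (limma, unadjusted p = 0.00528, adjusted p = 0.471), in a list with 6 positive and 8 negative. The H+-pyrophosphatase Glyma.08G214300 stood at 0.55 (limma, unadjusted p = 0.0064, adjusted p = 0.471), in a list with 5 positive and 2 negative. Both were under the fold threshold, with PDL above PSL in every library. The vacuolar H+-ATPase subunits, which share the membrane of the TIPs, summed to 1488 and 1432 FPKM in PDL and 1421 and 1486 FPKM in PSL. Ammonium transporters had 6 of 11 loci tested, 0 called and a median of -0.18. The 1 urea transporter, Glyma.04G123700, had 5.21 and 5.12 FPKM in PDL, against 6.89 and 9.33 FPKM in PSL, a log2 fold change of -0.62 ± 0.19 (SE) under the fold threshold in size (limma, unadjusted p = 0.0297, adjusted p = 0.533).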

How the data were processed

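First trifoliate leaves of 2 PDL and 2 PSL samples were sequenced from both ends as poly(A) RNA. The authors used FastQC and the FASTX-toolkit to filter the reads, TopHat (several alignments per read allowed) over a Bowtie2 index of Gmax2.0 to map them, and Cufflinks to assemble loci. The deposited values are FPKM per locus and library from Cuffdiff, with no tool versions stated. The authors' own comparison columns (fold change, test statistic, p, q and a call) and their pooled group FPKM were not used.

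Groups came from the sample titles. Loci with a mean of at least 0.3 FPKM (32686) were fitted as log2(FPKM + 0.1), PDL against PSL, with limma 3.58.1 in R 4.3.3 (lmFit, eBayes with trend, no covariate), and Benjamini-Hochberg adjusted over all of them. The fit was first tested on simulated data. Depth per library is not given as counts here, so no counting error is stated. Precision rests on the spread of 2 libraries a group, with the variance of each locus drawn toward the trend over all loci. Libraries of the same replicate number shared little deviation (correlation of deviations -0.08 over the loci tested). Whether the samples were grown or handled in pairs is not stated, and this value cannot show it.

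Members, subfamilies and the related and marker lists are word patterns on the descriptions, chosen with earlier results of these data known. After the files were seen, vacuolar ATPases were moved out of the plasma membrane and pyrophosphatase lists and trichome birefringence genes out of the epidermis list, by description alone. Genes were named by a rule: every member called, the 3 highest and the extreme fold changes of each subfamily, every member of the small groups, members in the study's list of transporters, and the delta TIP highest or called. All other genes named were chosen after their values were seen. Alternatives changed the pseudocount, filter, scaling, variance trend and block, and left out each library. The reference gene table carries 0 of the table's gene names and was not used. The rest used Python 3.11.15 with matplotlib 3.10.9, scipy 1.17.1, pandas 2.3.3 and numpy 2.4.6.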

Additional observations from a re-analysis of the deposited data

How the results depend on the processing

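No aquaporin was called lower under any of the 13 alternatives, and 0 had an adjusted limma p under 0.05 in any. The 3 called higher became 5 with no filter on low values, and 1 to 5 with 1 library left out (1 without PDL-1, 5 without PSL-1). With a replicate block 2 were called, Glyma.02G073700 being lost at an unadjusted limma p of 0.0527. With a pseudocount of 1 it was lost too, at a log2 fold change of 0.74. The median log2 fold change of all aquaporins was 0.18 after quantile normalization and 0.11 to 0.23 with 1 library left out. With 1 library left out it was 0.17 to 0.27 for PIP (0.19 with a filter at 1 FPKM), 0.34 to 0.84 for PIP1, 0.019 to 0.39 for TIP, 0.083 to 0.32 for NIP and -0.044 to 0.42 for SIP, so that the SIP median changed sign without PSL-1. Rescaling moved the median of all loci by less than 0.01, but quantile normalization lowered the abundant genes: Glyma.03G185900 was 0.17 in place of 0.45, Glyma.19G186100 0.33 in place of 0.60 and Glyma.14G061500 -0.29 in place of -0.048. The ratio of summed levels over tested genes, an alternative chosen after seeing the data, was then 1.03 in place of 1.18 for all aquaporins, 0.924 in place of 1.02 for PIP and 1.16 in place of 1.39 for TIP. The cause was not tested. After median centring these ratios were 1.18 for all aquaporins, 1.02 for PIP and 1.39 for TIP. The lowest genes, under 0.3 FPKM, were limited by few reads.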

Other observations

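Some aquaporins whose 2 libraries of a group lay far apart were alike in which library was high. In PDL-1 and PDL-2, Glyma.15G003900 (NIP6;1) had 33.9 and 13.4 FPKM, Glyma.04G083200 (TIP4;1) 41.0 and 18.0 FPKM, and the delta TIP gene Glyma.08G203000 4.78 and 1.87 FPKM. In PSL-1 and PSL-2 the same genes had 27.1 and 21.4 FPKM, 25.9 and 20.7 FPKM, and 1.86 and 1.91 FPKM. Each had its highest value in PDL-1, as had the boron exporter Glyma.19G219500. The genes were picked by these values, and no test was made of the likeness.

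The guard cell word list had 12 loci with 8 tested, of which 2 were called higher and 0 lower. Both are described as stomagen, a secreted peptide that promotes stomata and does not itself mark guard cells. Over all loci 1.14% were called higher. Glyma.08G345100 had 8.23 and 9.55 FPKM in PDL, against 4.41 and 3.59 FPKM in PSL, at a log2 fold change of 1.14 ± 0.18 (SE) (limma, unadjusted p = 0.00247, adjusted p = 0.470). Its PDL values were all above its PSL values. The other, Glyma.18G152800, reached 1.32 and 3.45 FPKM in PDL, while PSL-1 and PSL-2 list it at 0, so that only its PDL values let it be tested. The tested loci described as SLAC1 homologues or MYB60 were not called. The whole guard cell list, stomagen included, summed to 68.5 and 75.2 FPKM in PDL, against 56.7 and 55.6 FPKM in PSL. Markers of dividing cells summed to 51.6 and 54.6 FPKM in PDL, against 43.3 and 25.0 FPKM in PSL, with 0 of 8 tested loci called. The xylem sum overlapped between groups, at 75.6 and 38.6 FPKM in PDL and 38.5 and 53.1 FPKM in PSL. Of 25 xylem loci tested 1 (4%) was called higher, Glyma.04G014700, and 0 lower. Their median log2 fold change was 0.52, with 15 positive and 10 negative. Phloem markers summed to 871 and 776 FPKM in PDL and 876 and 1064 FPKM in PSL, with 28 loci tested, 0 called higher and 1 lower. The 2 epidermis loci tested were not called, and that list summed to 0.417 and 0.582 FPKM in PDL, against 0.803 and 0.794 FPKM in PSL. The part of these cell types in the aquaporin levels was not tested.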
